A study of Homo sapiens with 6 samples.

Results

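The genes described here are the integrins and tetraspanins, taken from the gene count table by symbol: every protein-coding gene named as an integrin alpha or beta subunit (ITGA, ITGB) or as a tetraspanin (TSPAN, and CD9, CD37, CD53, CD63, CD81, CD82 and CD151), with ITGB1BP1 and ITGB3BP left out. This gave 54 of the 29538 genes in the table: 25 integrin subunits, 27 tetraspanins, and ITGBL1 and ITGB1BP2, 2 genes that carry an integrin name but encode no subunit. The cells were MDA-MB-231, an established, mesenchymal human breast cancer line. The control group (siNC, 3 biological replicates) received a negative-control siRNA and the other group (siBYSL, 3 biological replicates) the siRNA SI-BYSL-Homo-838 against BYSL, whose product bystin takes part in making the small ribosomal subunit. Both groups were given 160 pmol siRNA with 4 µL of transfection reagent per well, had fresh medium at 6 h and were harvested at 48 h. One line and 1 siRNA per group were used, so an effect of BYSL loss and an effect of this siRNA sequence cannot be told apart.

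Integrins are receptors for the extracellular matrix that span the membrane as pairs of 1 alpha and 1 beta subunit. The alpha subunit largely sets the ligand: laminin, collagen or proteins with an RGD sequence such as fibronectin and vitronectin. Inside the cell the beta tail is bound by talin and kindlin, which switch the receptor on and join it to actin. Tetraspanins are small proteins that cross the membrane 4 times and gather integrins, growth factor receptors and proteases into membrane domains. CD151 binds laminin receptors directly, the TspanC8 group carries the protease ADAM10, and CD63, CD81 and CD9 are common on exosomes.

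Libraries held 27754883 to 32088817 counts, of which the members took 0.478% to 0.508%. Levels are given as CPM, counts scaled to a common library size, on library sizes scaled by the trimmed mean of M-values (TMM), as mean ± SD (n = 3 per group), and log2 fold changes as siBYSL minus siNC with a standard error (SE) from the test. A gene was called at an adjusted p under 0.05 (edgeR quasi-likelihood test, Benjamini-Hochberg over all genes tested), and "rose" and "fell" are used only for called genes. BYSL fell from 99.9 ± 4.93 CPM with the control siRNA to 16.4 ± 0.943 CPM (log2 fold change -2.61, adjusted p = 9.4e-09). The line's markers VIM, CD44, AXL, CAV1, EGFR and MSN summed to 5469 to 5551 CPM in siNC and 4600 to 4843 CPM in siBYSL, while CDH1, EPCAM, CLDN3, ESR1, PGR and KRT20, low or absent in this line, summed to 19.1 to 20.7 and 29.97 to 32.6 CPM. VIM, AXL, CAV1, EGFR and MSN each fell, but CD44 rose (0.19, edgeR adjusted p = 0.0143). CDH1, EPCAM and CLDN3 each rose, and ESR1, PGR and KRT20 were not tested. The library siBYSL 3 stood apart from its group: a comparison of counts over all genes gave a chi-square, divided by its degrees of freedom, of 22.0 with siBYSL 1 and 13.5 with siBYSL 2, and of 3.42 for that pair.

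The strands of the BYSL siRNA are shown because the seed, bases 2 to 8 in capitals, can pair with other transcripts.
BYSL siRNA, sense strand: gAGAUGACguugcugaauatt
BYSL siRNA, antisense (guide) strand: uAUUCAGCaacgucaucuctt
The guide seed pairs with the heptamer GCTGAAT, which was searched for on the transcript strand in the longest annotated 3′ UTR of each gene (GENCODE 29). Among 13067 tested genes with such a UTR 1550 (11.9%) held it, and among the 40 tested members 3 (7.50%) did: ITGB8, TSPAN14 and ITGB1. The 30 bases around each site, with the match in capitals, were these.
ITGB8, 788 bases after the stop codon: tagttttaaaaGCTGAATgttaatagggga
TSPAN14, 3434 bases after the stop codon: ggtggtggagtGCTGAATgaccttcacagg
ITGB1, 844 bases after the stop codon: acaaagtatttGCTGAATggggaccttttg
No tested member held the octamer GCTGAATA, found in 412 genes (3.15%), and the passenger-strand heptamer GTCATCT was in 6 of the 40 (15%, against 12.1% of all). Over all genes the heptamer was in 19.1% of those that fell and 9.03% of those that rose. Of the 3 members with it ITGB8 rose, TSPAN14 fell by 0.15 and ITGB1 was not called, as described with their values further on. Of the annotated protein-coding transcripts 1 of 2 carried the ITGB8 site in the 3′ UTR. For TSPAN14 it was 2 of 8 and for ITGB1 3 of 15. A match is a string of letters in a UTR and was not tested as a site of action.

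Of the 54 members 40 passed the filter on low counts and 14 did not. Per kilobase of annotated exons, ITGA3, the alpha subunit of a laminin receptor, was the most abundant integrin in siNC at 108 ± 1.21 CPM per kb, ahead of ITGB1, the beta subunit that pairs with most alpha chains, at 79.8 ± 4.94. ITGA6, a laminin receptor chain, followed at 39.9 ± 0.325 CPM per kb. ITGA5, the fibronectin receptor chain, at 27.0 ± 0.161, and ITGB5 at 26.0 ± 0.157 lay close together but apart by more than their SDs. ITGA2, a collagen receptor chain, was at 20.1 ± 0.952 and ITGB4, the partner of ITGA6 in hemidesmosomes, at 14.7 ± 0.625. ITGAV at 13.1 ± 0.438 CPM per kb and ITGAE at 9.03 ± 0.920 came next. ITGB2, ITGB3, ITGA1 and ITGA10 ran from 3.32 down to 1.29 CPM per kb, and ITGA7, ITGB7, ITGB6 and ITGB8 were at 0.133 or below, where the SDs of neighbours overlapped.

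The most abundant tetraspanin was CD63, a protein of lysosomes and exosomes, at 237 ± 11.6 CPM per kb. It was followed by CD151 at 89.0 ± 4.16, CD9 at 68.2 ± 1.59, CD82 at 42.7 ± 1.47, CD81 at 25.7 ± 0.449 and TSPAN3 at 21.4 ± 0.201. TSPAN4 and TSPAN15 (19.2 ± 0.396 CPM per kb) came next and did not differ beyond their spread. The 10 tested tetraspanins from TSPAN17 to TSPAN12 lay between 13.5 and 2.33, and TSPAN33, TSPAN2 and TSPAN10 between 0.873 and 0.255. The order in siBYSL was led by the same 5 tetraspanins, and among integrins ITGB5 at 28.9 ± 0.623 CPM per kb stood above ITGA5 at 27.0 ± 0.898. That order depends on the length used: without division by length ITGA5 (204.4 CPM) stood above ITGB5 (186.5 CPM) in siBYSL. The SDs do not cover error in the lengths. Exonic length counts every annotated exon, so a gene with long alternative UTRs, such as TSPAN14 (17888 bases) or ITGA1 (18566 bases), is placed lower than its main transcript would be.

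**Figure D1:**
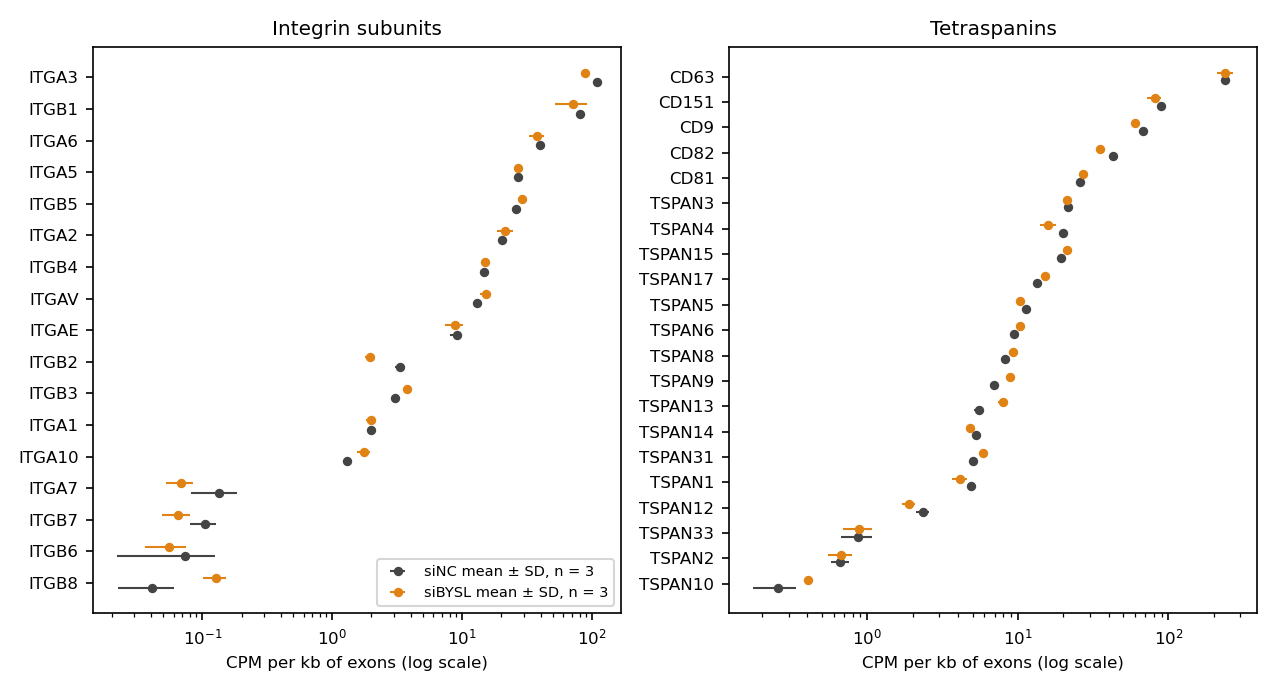
Mean CPM per kilobase of exons (x axis, log scale) of the tested integrin subunits (left) and tetraspanins (right) in siNC and siBYSL, with SD over 3 libraries. ITGA3 leads the integrins at 108 and CD63 the tetraspanins at 237 CPM per kb in siNC, and ITGB2 and ITGB8 show the widest gaps between groups among subunits called.

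The 14 members below the filter were ITGA2B, ITGA4, ITGA9, ITGA11, ITGAD, ITGAL, ITGAM, ITGAX, CD37, TSPAN7, TSPAN11, TSPAN18, TSPAN19 and TSPAN32. None had more than 13 counts in a library, and no fold change is given for them. CD53 had no row in the table analysed here. Among them are the alpha chains of the leukocyte receptors (ITGAL, ITGAM, ITGAX, ITGAD), the chain of the platelet receptor (ITGA2B) and CD37, a tetraspanin of lymphocytes.

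Of the 40 tested members 10 rose (25.0%) and 8 fell (20%), beside 18.5% and 18.4% of all 16412 genes tested. Together 45.0% of members and 36.9% of all genes were called. All members are protein-coding, and of the 13361 protein-coding genes tested 19.7% rose, 20.9% fell and 40.6% were called. Among the 19 integrin genes 5 rose and 3 fell, and among the 21 tetraspanins 5 rose and 5 fell. The 19 include ITGBL1, which fell, and ITGB1BP2, which encode no subunit. Of the 17 tested subunits alone 5 rose (29.4%) and 2 fell (11.8%), with a median log2 fold change of -0.0018. The median log2 fold change was -0.041 for integrin genes, 0.018 for tetraspanins and 0.0066 for all genes. With library totals in place of TMM factors these medians were 0.036, 0.095 and 0.085. Most changes were small: ITGB8 alone passed 1 on the log2 scale. With library totals 5 integrin genes rose and 3 fell but 9 tetraspanins rose and 2 fell, while 25% of all genes rose and 12.1% fell, so that 67.4% of all calls were rises, against 50.04%. The integrin rises numbered 3 without siNC 1, siNC 2, siBYSL 1 or siBYSL 2 and 2 without siNC 3. The tetraspanin rises were 2 without siNC 2 or siNC 3 and 3 without siNC 1 or siBYSL 2, and the falls 2 without siNC 3 or siBYSL 2 and 3 without siNC 1, siNC 2 or siBYSL 1. Without siBYSL 3 the integrin rises were 6 and the tetraspanin rises and falls 7 each. Over all genes the shares that rose and fell were then 13.5% and 13.4% without siNC 1, 13.8% and 13.7% without siNC 2, and 12.6% and 12.5% without siNC 3. They were 16.7% and 17% without siBYSL 1, 13.5% and 13.2% without siBYSL 2, and 23.5% and 24.3% without siBYSL 3. With upper-quartile factors they were 22.1% and 14.7%, with the DESeq2 Wald test 16.1% and 17.2%, and with a replicate term 17.1% and 16.8%.

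**Figure D2:**
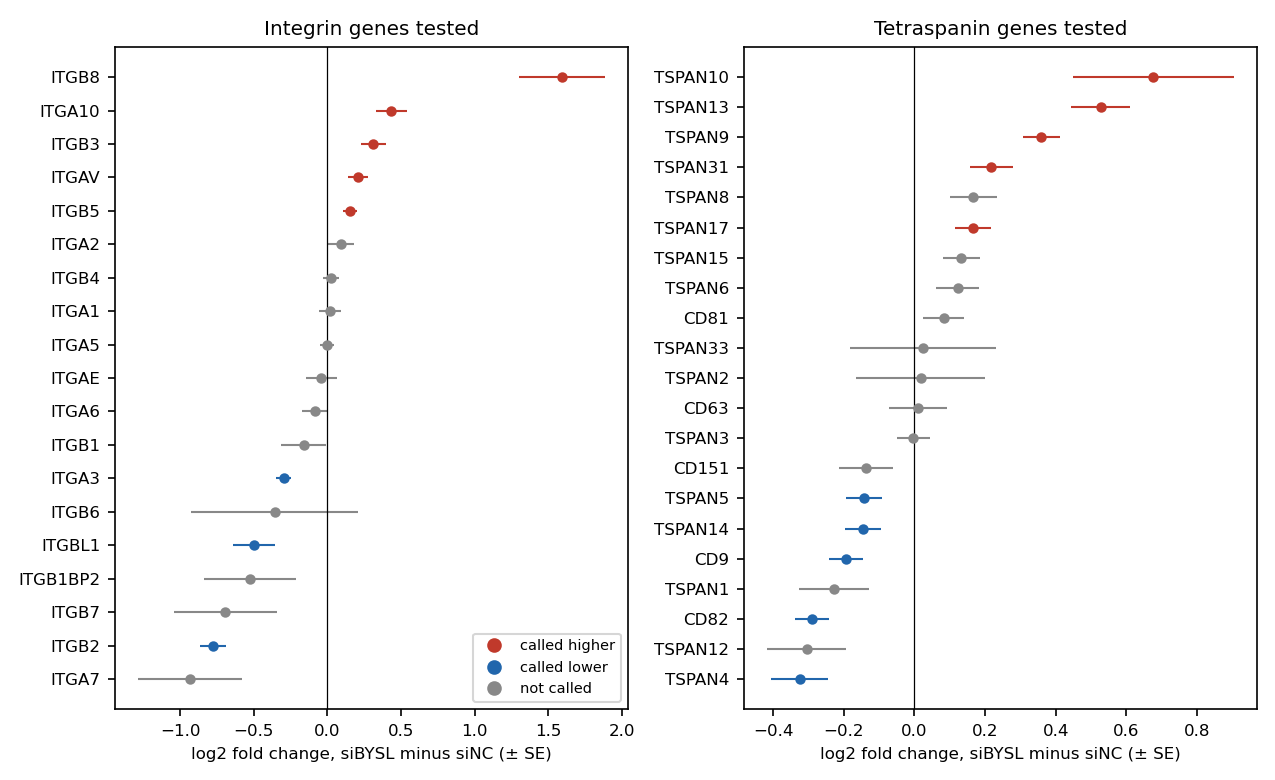
Log2 fold change (siBYSL minus siNC, x axis, with SE) of the 19 integrin genes and 21 tetraspanins tested, coloured by call; the panels have different x scales. ITGB8 at 1.60 and TSPAN10 at 0.68 lie farthest right, and ITGB2 at -0.78 and TSPAN4 at -0.32 are the lowest genes called.

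The alphaV chain and 3 of its 5 beta partners rose, while ITGB1 and ITGB6 were not called; over all genes 18.5% rose. Of these calls that of ITGB8 held in all 14 alternatives, ITGB3 in 13, ITGAV in 8 and ITGB5 in 7. ITGAV, the common alpha chain of the vitronectin and TGF-beta-activating receptors (chromosome 2, 186590065 to 186680901, plus strand, GRCh38), was at 104, 107 and 111 CPM in siNC 1 to 3 and 135, 126 and 112 CPM in siBYSL 1 to 3. The groups did not overlap, but siBYSL 3 was less than 1 CPM above the highest control (log2 fold change 0.21, SE 0.068, adjusted p = 0.0331). The edgeR adjusted p lay between 0.0702 and 0.126 when siNC 1, siNC 2, siNC 3, siBYSL 1 or siBYSL 2 was left out, so the ITGAV call rests on having all of them.

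ITGB3 (chromosome 17, 47253846 to 47311816, plus strand), which with alphaV forms the vitronectin receptor, was at 13.5, 14.2 and 12.4 CPM in siNC and 17.8, 16.5 and 15.6 CPM in siBYSL. Every siBYSL library was above every control (0.31, SE 0.084, edgeR adjusted p = 0.0139, or 0.0796 without siNC 3). A read-through gene on the same strand shares 2266 of its 4394 exonic bases, so part of its reads could be counted there. ITGB5 (chromosome 3, 124761948 to 124901418, minus strand), another vitronectin-binding partner, was at 169, 167 and 167 CPM in siNC and 191, 186 and 183 CPM in siBYSL. These groups were narrow and apart, and the change small (0.15, SE 0.046, edgeR adjusted p = 0.0228). Its adjusted p was between 0.0527 and 0.107 without siNC 1, siNC 2, siNC 3, siBYSL 1 or siBYSL 2.

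ITGB8 (chromosome 7, 20330702 to 20415754, plus strand), the partner that presents latent TGF-beta for activation, showed the largest rise among the tested members, from a low level. Its raw counts were 15, 11 and 28 in siNC and 67, 60 and 46 in siBYSL, or 0.624 ± 0.286 and 1.91 ± 0.372 CPM. All siBYSL libraries lay above all controls (1.60, SE 0.29, edgeR adjusted p = 0.00157), and the call held in each of the 14 alternative analyses, with log2 values of 1.35 to 2.03. ITGB6, the epithelial partner of alphaV, had at most 14 counts in a library and was not called (-0.36, adjusted p = 0.656).

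Among collagen-binding chains ITGA10 (chromosome 1, 145891208 to 145910189, minus strand), known from cartilage, rose. It was at 8.55, 7.67 and 8.29 CPM in siNC and 12.6, 10.1 and 10.5 CPM in siBYSL, with no overlap (0.43, SE 0.11, edgeR adjusted p = 0.00812). ITGA2, the more abundant collagen receptor chain, was at 151, 166 and 160 CPM in siNC and 188, 178 and 143 CPM in siBYSL: siBYSL 1 and 2 lay above all controls and siBYSL 3 below them. It was not called (0.091, adjusted p = 0.453), whereas without siBYSL 3 it was (0.20, edgeR adjusted p = 0.000709). ITGA1 was at 36.6 ± 1.51 and 37.1 ± 3.48 CPM and was not called (0.019, adjusted p = 0.869). ITGA1 shares 475 exonic bases with PELO on the same strand, which fell.

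Among laminin-binding chains ITGA3 (chromosome 17, 50055968 to 50090481, plus strand), which pairs with ITGB1 and associates with CD151, fell. It was at 1067, 1069 and 1047 CPM in siNC and 893, 841 and 859 CPM in siBYSL. The 2 sets were far apart relative to their spread (-0.30, SE 0.051, edgeR adjusted p = 0.00115), and the call held in all 14 alternatives. ITGA6 was at 261, 263 and 258 CPM in siNC and 277, 251 and 210 CPM in siBYSL, on both sides of the controls, and was not called (-0.085, SE 0.084, adjusted p = 0.464). Its partner ITGB4 was at 99.3 ± 4.23 and 101 ± 4.58 CPM (0.025, SE 0.056, adjusted p = 0.752). ITGA7, a laminin receptor chain of muscle, had at most 30 counts in a library (-0.93, SE 0.35, adjusted p = 0.0605).

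ITGA5, the fibronectin receptor chain, was level: 203, 206 and 205 CPM in siNC and 212, 201 and 200 CPM in siBYSL. Its log2 difference was -0.0018 with an SE of 0.048 (edgeR adjusted p = 0.980), and it was not called in any of the 14 alternatives. ITGAE, which with ITGB7 binds E-cadherin, was at 64.3, 53.1 and 63.0 CPM in siNC and 54.0, 52.4 and 69.1 CPM in siBYSL and was not called (-0.041, adjusted p = 0.792), though without siBYSL 3 it was (-0.18, edgeR adjusted p = 0.0333). ITGB7 had at most 16 counts in a library and was not called (-0.69, adjusted p = 0.145).

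ITGB2 (chromosome 21, 44885953 to 44931989, minus strand), the beta chain shared by the leukocyte receptors, had the largest fall among the called members. It was at 20.2, 23.8 and 23.6 CPM in siNC and 12.7, 12.5 and 14.4 CPM in siBYSL, with every siBYSL library below every control (-0.78, SE 0.090, edgeR adjusted p = 8.74e-05), and it stayed called in all 14 alternatives. Its alpha partners ITGAL, ITGAM, ITGAX and ITGAD had 0 to 5 counts per library. Of 12 leukocyte markers 7 had counts, with summed levels of 16.3 to 18.1 CPM in siNC and 16.8 to 21.1 CPM in siBYSL. CD14 and CSF1R made up most of this, while the pan-leukocyte gene PTPRC was at 0.0926 and 0.169 CPM and SPI1 was at 0 in siNC. CD3D, a T cell gene, was called, alone among the 3 markers tested. Like ITGB2 it fell, from 0.596 ± 0.0418 to 0.295 ± 0.0791 CPM (-0.99, SE 0.31, edgeR adjusted p = 0.0290). Its raw counts were only 18, 16 and 17 in siNC and 6, 12 and 9 in siBYSL. The other markers tested, CD14 (0.20) and CSF1R (-0.083), were not called. The part of cells with such markers in the ITGB2 result was not tested. In bulk RNA, fewer cells that express a gene and less of its RNA per cell cannot be told apart. The antisense gene ITGB2-AS1 shares 303 exonic bases with ITGB2 and fell as well (-0.75), and whether the counting used strand is not given in the sources used here.

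Of the genes that are no subunits, ITGBL1, which encodes a secreted protein with integrin-like EGF repeats, was at 3.29, 3.07 and 3.74 CPM in siNC and 2.32, 2.21 and 2.64 CPM in siBYSL. The groups did not overlap and it fell (-0.50, SE 0.15, edgeR adjusted p = 0.0202), but not without siNC 3 (0.0917) or siBYSL 2 (0.0832). FGF14 on the opposite strand shares 4354 of its 6174 exonic bases. ITGB1BP2, the muscle protein melusin, had at most 21 counts in a library and was not called (-0.53, adjusted p = 0.213).

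ITGB1 (chromosome 10, 32900319 to 33005792, minus strand), the partner of ITGA1, ITGA2, ITGA3, ITGA5, ITGA6 and ITGA10, was the integrin of 10 CPM or more that differed most among the siBYSL libraries. It was at 453, 511 and 476 CPM in siNC and at 537, 445 and 307 CPM in siBYSL. siBYSL 1 was above all controls and siBYSL 3 far below all other libraries, so the group means of 480 ± 29.7 and 430 ± 116 CPM overlapped (-0.16, SE 0.15, edgeR adjusted p = 0.445). Without siBYSL 3 the difference was 0.033 (adjusted p = 0.746), and without siBYSL 1 it was -0.35 and called (adjusted p = 0.0404). The data therefore give no single direction for ITGB1.

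The same library moved other members. Against the mean of siBYSL 1 and 2, siBYSL 3 was lower by -0.67 on the log2 scale for ITGB1, -0.35 for ITGA2, -0.33 for ITGA6 and -0.22 for ITGAV. It was higher by 0.38 for ITGAE, 0.30 for TSPAN4, 0.30 for CD63, 0.28 for TSPAN1 and 0.26 for CD151. The called genes ITGA3 (-0.014), TSPAN14 (-0.028) and CD82 (-0.028) differed little there. Exonic length moved with this contrast over other protein-coding genes: the median was 0.21 for 1211 genes under 2000 bases, 0.053 for 3594 genes of 2000 to 3999, -0.064 for 5615 genes of 4000 to 7999 and -0.13 for 2847 genes of 8000 bases or more. Against the siNC mean the medians under 2000 bases were -0.176 in siBYSL 1, -0.105 in siBYSL 2 and 0.073 in siBYSL 3. For 8000 bases or more they were 0.103, 0.0507 and -0.0504. Thus siBYSL 1 and 2 also departed from the controls with length, in the direction opposite to siBYSL 3. ITGB1 has 6011 exonic bases, ITGA2 7910, CD63 2633 and ITGA3 9802; the part of length in the members' values was not tested.

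**Figure D3:**
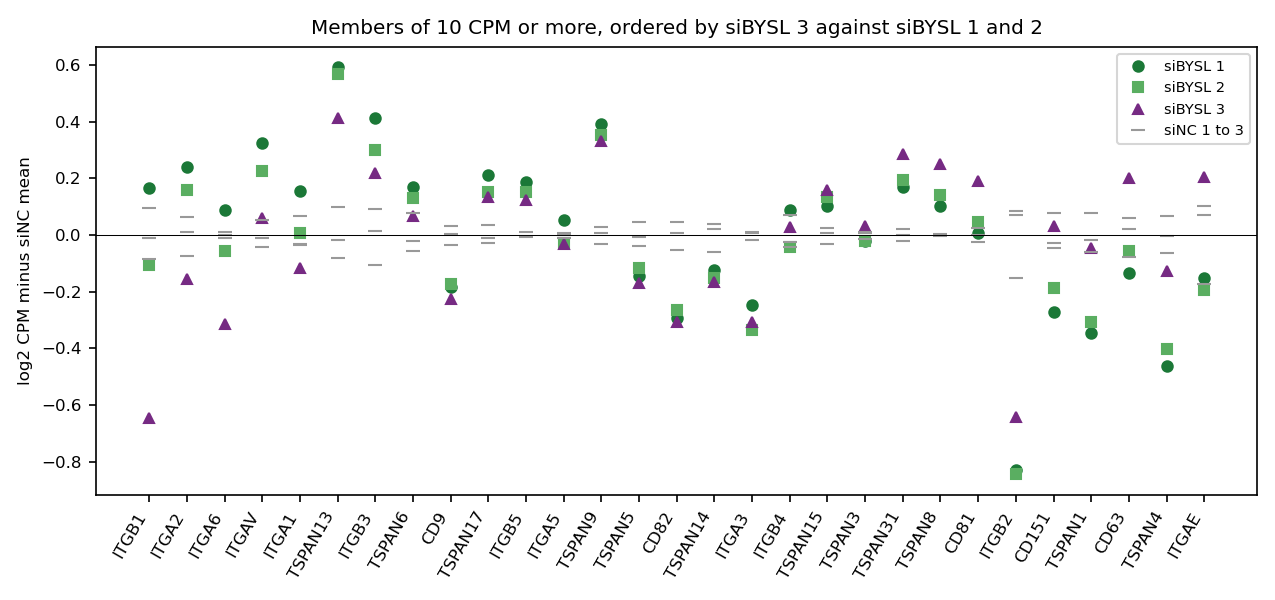
Log2 CPM minus the siNC mean (y axis) of the members with 10 CPM or more, for each siBYSL library (symbols) and the siNC libraries (dashes), ordered by siBYSL 3 against siBYSL 1 and 2. ITGB1 at the left runs from 0.16 in siBYSL 1 to -0.65 in siBYSL 3, while CD82 and TSPAN14 hold together below the controls.

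Among tetraspanins with partners at the cell surface, CD82 and CD9 fell and CD151 and CD81 were not called. CD82 (chromosome 11, 44564427 to 44620363, plus strand), known as a suppressor of metastasis, was at 167, 179 and 174 CPM in siNC and 141, 144 and 140 CPM in siBYSL. All siBYSL libraries lay below all controls (-0.29, SE 0.049, edgeR adjusted p = 0.000956), and it stayed called in all 14 alternatives. CD9 (chromosome 12, 6199715 to 6238271, plus strand), which binds the immunoglobulin proteins PTGFRN and IGSF8, was at 285, 277 and 290 CPM in siNC and 250, 252 and 243 CPM in siBYSL. The groups were apart (-0.19, SE 0.048, edgeR adjusted p = 0.00928), although the call was lost without siNC 3 (0.0649) and with library totals (-0.12, 0.106).

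CD151, the partner of laminin receptors, was at 369, 339 and 343 CPM in siNC and 290, 308 and 358 CPM in siBYSL. siBYSL 3 lay among the controls and the other siBYSL libraries below them, and CD151 was called only without siBYSL 3 (-0.23, edgeR adjusted p = 0.000201) and not with all libraries (-0.14, SE 0.076, adjusted p = 0.181). CD81 was at 190, 187 and 193 CPM in siNC and 191, 196 and 217 CPM in siBYSL, overlapping (0.083, adjusted p = 0.286; 0.16 and 0.0420 with library totals). CD63 was at 650, 591 and 632 CPM in siNC and 569, 600 and 718 CPM in siBYSL: siBYSL 1 lay below all controls, siBYSL 2 among them and siBYSL 3 above them, and it was not called (0.0099, adjusted p = 0.937).

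The TspanC8 tetraspanins, which escort ADAM10 out of the endoplasmic reticulum and set where it acts, divided. Among the 6 tested there were 2 rises and 2 falls (33.3% each, beside 18.5% and 18.4% of all genes), and 2 were not called. None of these rises and falls was called with the DESeq2 Wald test (adjusted p = 0.0523 for TSPAN10, 0.0529 for TSPAN17, 0.0716 for TSPAN14 and 0.078 for TSPAN5). TSPAN5 was at 87.4, 82.5 and 84.3 CPM in siNC and 76.7, 78.1 and 75.3 CPM in siBYSL (-0.14, SE 0.050, edgeR adjusted p = 0.0449). TSPAN14 was at 90.8, 96.2 and 97.1 CPM in siNC and 86.9, 85.3 and 84.5 CPM in siBYSL (-0.15, SE 0.051, edgeR adjusted p = 0.0421). In both the siBYSL libraries lay below all controls, but each call was lost without any 1 library other than siBYSL 3 (TSPAN5 0.0768 to 0.172, TSPAN14 0.0545 to 0.173) and with library totals, where the log2 changes shrank to -0.065 and -0.068.

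TSPAN17 was at 68.8, 69.6 and 71.9 CPM in siNC and 81.2, 77.9 and 76.9 CPM in siBYSL, higher in every siBYSL library (0.17, SE 0.051, edgeR adjusted p = 0.0265), and without any 1 library other than siBYSL 3 its adjusted p was 0.0703 to 0.112. TSPAN10 had raw counts of 42, 38 and 23 in siNC and 57, 64 and 54 in siBYSL. Its groups did not overlap (0.68, SE 0.23, edgeR adjusted p = 0.0378), but the change was 0.43 without siNC 3 (adjusted p = 0.134), and the call was also lost without siNC 2 (0.0608), siBYSL 1 (0.0684) or siBYSL 2 (0.0960). TSPAN15, at 50.8 ± 1.05 and 55.7 ± 1.06 CPM, was just outside the threshold (0.13, adjusted p = 0.0707, or 0.0418 without siBYSL 3 and 0.0111 with library totals), and TSPAN33 was not called (0.024, adjusted p = 0.941). The client protease ADAM10 rose from 158 ± 3.14 to 211 ± 20.8 CPM (0.42, SE 0.068, edgeR adjusted p = 0.000831).

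Among the other tetraspanins TSPAN13 and TSPAN9 had the clearest rises. TSPAN13 (chromosome 7, 16753535 to 16784536, plus strand) was at 13.1, 12.1 and 11.5 CPM in siNC and 18.4, 18.1 and 16.3 CPM in siBYSL (0.53, SE 0.083, edgeR adjusted p = 0.000644). TSPAN9 (chromosome 12, 3077355 to 3286564, plus strand), known from platelets, was at 48.7, 46.7 and 48.0 CPM in siNC and 62.8, 61.1 and 60.1 CPM in siBYSL (0.36, SE 0.053, edgeR adjusted p = 0.000406). For both the groups were apart and the call held in all 14 alternatives.

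TSPAN31, a neighbour of CDK4, was at 27.1, 27.5 and 26.8 CPM in siNC and 30.6, 31.0 and 33.1 CPM in siBYSL (0.22, SE 0.061, edgeR adjusted p = 0.0170), with no overlap. Without siNC 1, siNC 2 or siNC 3 its adjusted p was 0.0632, 0.0506 and 0.0804. CDK4 shares 1369 of its 5385 exonic bases on the opposite strand and moved the other way (-0.18, adjusted p = 0.0499). TSPAN4 (chromosome 11, 842808 to 867116, plus strand), abundant on migrasomes, was at 122, 112 and 117 CPM in siNC and 84.8, 88.3 and 107 CPM in siBYSL, lower in each but least in siBYSL 3 (-0.32, SE 0.081, edgeR adjusted p = 0.00950, or 0.0501 without siBYSL 2).

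The rest of the tetraspanins were not called. TSPAN3 was level at 182 ± 1.71 and 182 ± 3.87 CPM (-0.0033, SE 0.046, edgeR adjusted p = 0.962). TSPAN8 (0.17, adjusted p = 0.0721), TSPAN6 (0.12, 0.138) and TSPAN1 (-0.23, 0.0929) missed the threshold. TSPAN6 and TSPAN1 passed it without siBYSL 3 (0.0248 and 0.00506), and TSPAN8 and TSPAN6 with library totals (0.0145 and 0.0339). TSPAN12, a co-receptor component for Norrin and FZD4, was at 7.85 ± 0.758 and 6.35 ± 0.630 CPM, lower in every siBYSL library (-0.31, adjusted p = 0.0538). TSPAN2 had at most 79 counts in a library (0.018, adjusted p = 0.948).

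**Figure D4:**
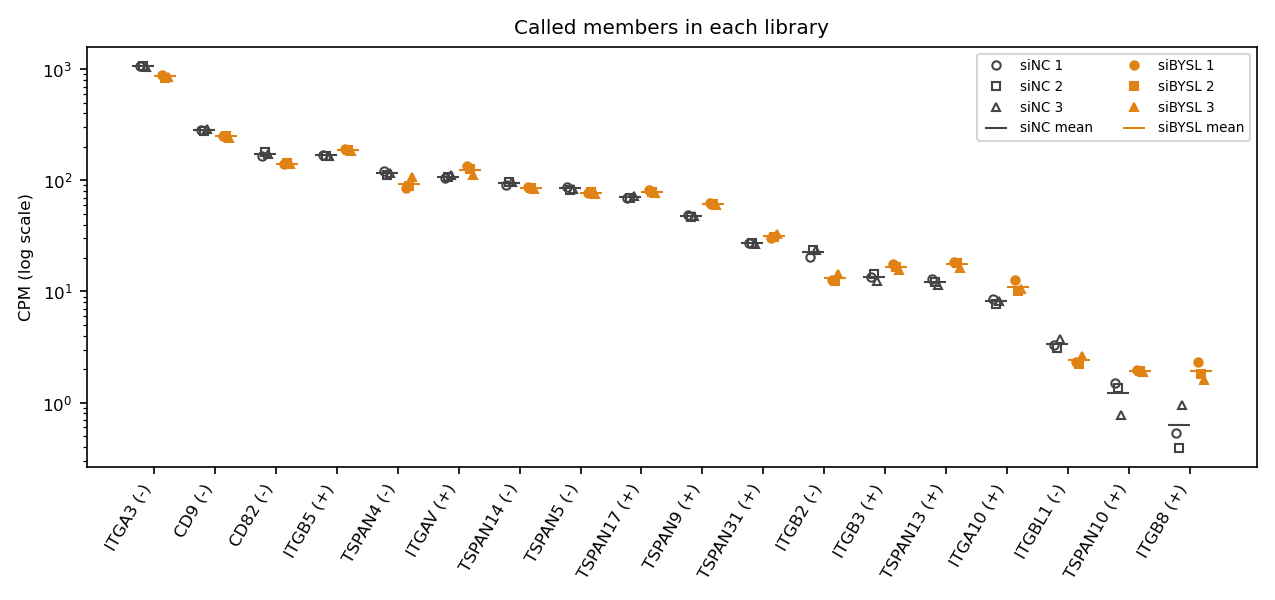
CPM (y axis, log scale) of the 18 called members in each siNC library (open symbols) and siBYSL library (filled symbols), with group means as bars; plus and minus signs after the names give the direction. ITGA3 runs from 1069 to 841 CPM at the left, and ITGB8, with 11 to 67 counts per library, is the lowest and most scattered at the right.

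The proteins that work with these receptors were described by 5 lists, chosen with earlier results of these data known. The shares of all genes set beside the lists include non-coding genes. Of the protein-coding genes alone 19.7% rose and 20.9% fell. Of 35 tested genes that link integrins to actin or switch them on, 13 fell (37.1%) and 6 rose (17.1%), with a median of -0.14, beside 18.4% and 18.5% of all genes. Kindlin-2, FERMT2, fell from 85.2 ± 3.35 to 60.3 ± 6.502 CPM (-0.50, SE 0.076, edgeR adjusted p = 0.000511) and kindlin-1, FERMT1, by 0.37; talin-1, TLN1, fell by 0.21 and vinculin, VCL, by 0.22. The actin-side proteins PARVA (-0.45), ZYX (-0.40) and VASP (-0.38) fell too. FHL2, a LIM-domain protein, rose from 52.6 ± 1.96 to 101 ± 4.09 CPM (0.95, SE 0.056, edgeR adjusted p = 1.36e-06). The other rises of the list were TNS3 (0.50), DOCK1 (0.40), LIMS2 (0.25), the second talin gene TLN2 (0.23) and SRC (0.21). Focal adhesion kinase PTK2 (0.11), ILK (-0.026) and paxillin PXN (0.023) were not called. The 19 calls became 12 without siNC 1, 11 without siNC 2, 10 without siNC 3 and 11 without siBYSL 2. They were 20 without siBYSL 1 and 25 without siBYSL 3.

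Ligands went both ways, and within the laminins the chains divided. Of 31 tested ligand genes 12 rose (38.7%) and 6 fell (19.4%), beside 18.5% and 18.4% of all genes, with a median of 0.12. The laminin beta chain LAMB3 fell from 206 ± 3.15 to 128 ± 6.56 CPM (-0.68, SE 0.053, edgeR adjusted p = 6.73e-06), while the laminin alpha chain LAMA3 was not called (-0.017, adjusted p = 0.881). LAMA5 fell from 227.5 ± 6.68 to 191.9 ± 13.3 CPM (-0.25, edgeR adjusted p = 0.00803). The only listed laminin chain to rise was LAMA4, by 1.60 from a low level of 0.801 CPM. The matricellular ligands CCN1 and CCN2 fell by 0.83 and 0.80. Fibronectin, FN1, rose from 267 ± 16.5 to 387 ± 54.1 CPM (0.54, SE 0.091, edgeR adjusted p = 0.00103). Among other ligands fibrillin-1, FBN1 (1.56), vitronectin, VTN (1.03, from 0.940 CPM), tenascin-C, TNC (0.64), and EDIL3 (0.38) rose, and MFGE8 fell by 0.17. Thrombospondin-1, THBS1 (-0.011), osteopontin, SPP1 (0.13), and TGFB1 (0.058) were not called. LTBP1, which stores latent TGF-beta, rose by 1.05 from 48.0 ± 2.67 to 99.1 ± 16.0 CPM.

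Of 22 tested genes of integrin endocytosis and recycling 3 rose (13.6%) and 3 fell (13.6%), beside 18.5% and 18.4% of all genes. RAB21, which binds integrin alpha tails on endosomes, fell from 85.7 ± 2.02 to 58.2 ± 4.35 CPM (-0.56, SE 0.063, edgeR adjusted p = 7.25e-05), AP2A1, of the clathrin adaptor, fell by 0.34 and the recycling GTPase RAB11A by 0.16, while SNX27, of the retromer route, rose by 0.32. The 6 calls became 12 without siBYSL 3 and 3 without siNC 1, siNC 3, siBYSL 1 or siBYSL 2.

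Of 13 tested tetraspanin partners 8 fell (61.5%) and 4 rose (30.8%), beside 18.4% and 18.5% of all genes, with a median of -0.24. HBEGF, a growth factor precursor bound by CD9, fell from 87.6 ± 3.04 to 46.3 ± 1.48 CPM (-0.92, SE 0.055, edgeR adjusted p = 1.43e-06), and IGSF3, an immunoglobulin family protein, from 3.19 ± 0.104 to 0.930 ± 0.422 CPM (-1.78). IGSF8 fell by 0.24 and its relative PTGFRN rose by 0.52 from 1.65 CPM. EPCAM (0.54) and ADAM10 (0.42) rose; MET fell by 0.28. The 12 calls were 7 without siNC 2 or siBYSL 2, 8 without siNC 1, 9 without siNC 3, 10 without siBYSL 1 and 13 without siBYSL 3. Of the 8 that fell 2 held the guide-seed heptamer, beside 19.1% of all genes that fell: IGSF3 and CD46 (-0.38). In both it was followed by A to make the octamer, found in 6.0% of all genes that fell. The CD46 sites lie in the 3′ UTR of transcript CD46-208 but in coding sequence in 8 of its 11 protein-coding transcripts. In the other lists RAB4A held the octamer and a further heptamer and was not called (0.11), SRC and SNX27 held the heptamer and rose, FERMT1 and CHMP4B held it and fell, and VPS35 and COL1A2 held it and were not called. The IGSF3 site, in the 3′ UTR of 2 of its 4 protein-coding transcripts, is shown because the gene had the largest fall of the list.
IGSF3, 2582 bases after the stop codon: ggaggaaaactGCTGAATActctggattca

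Of 16 genes of exosomes and multivesicular bodies 3 rose (18.8%) and 4 fell (25.0%), beside 18.5% and 18.4% of all genes. Syndecan-1, SDC1, rose from 49.2 ± 0.785 to 83.9 ± 3.42 CPM (0.77, SE 0.054, edgeR adjusted p = 3.97e-06), and the secretion GTPase RAB27B rose by 0.57. The sorting proteins TSG101 (-0.30) and HGS (-0.26) fell, and syntenin, SDCBP, which joins syndecans to CD63, was not called (0.032, adjusted p = 0.683).

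**Figure D5:**
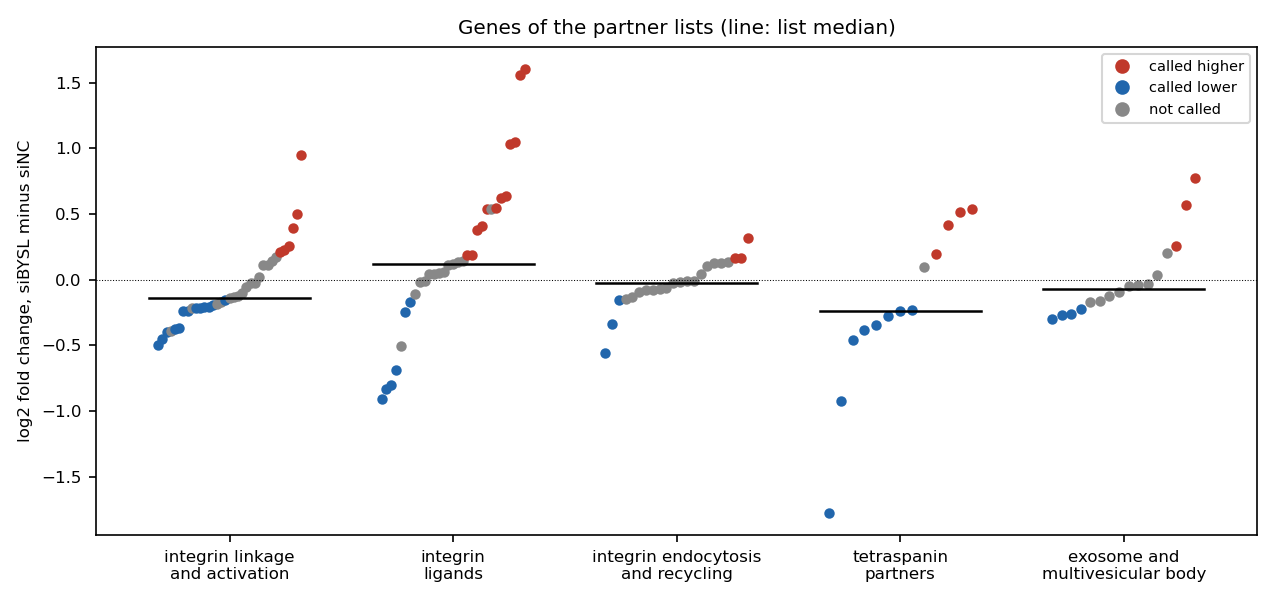
Log2 fold change (siBYSL minus siNC, y axis) of each tested gene in the 5 partner lists, coloured by call, with the list median as a line. The tetraspanin partner list has the lowest median, -0.24, with IGSF3 at -1.78, and the ligands spread widest upward, to 1.60 for LAMA4.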

How the data were processed

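Poly(A) RNA of 6 MDA-MB-231 cultures was sequenced from strand-specific libraries as 150 nt paired reads, per the labels' protocols. The deposited file gives raw counts per gene and library. HISAT2, DESeq2 and build GRCh38.p13 are named in the submitters' processing notes without version or role. Counting tool, annotation and filters: not given in the sources used here. Samples were grouped by title. The members and gene lists were chosen with earlier results of these data known.

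Counts were filtered with filterByExpr by group, scaled with TMM factors and tested over 16412 genes by edgeR with robust quasi-likelihood fits and group as the only term. Each SE was taken from the fold change and its F statistic (size of the log2 value over root F). CPM of single genes use the scaled library sizes; log2 CPM use a prior count of 2. The p-values measure the spread between replicate cultures of a single line, and low counts widen the SE. Named were BYSL, all called members, other members of 10 CPM or more and up to 4 genes of each list with the smallest p, of which 1 is not reported here; further list genes and members below 10 CPM named for their role were chosen after their values were seen. Exonic lengths, coordinates and 3′ UTRs came from GENCODE 29 (GRCh38), matched by identifier for all 54 members. Tests were tried on simulated counts. The alternatives tried were other scalings (library totals, size factors of DESeq2, upper quartiles), other filters (none, or 1 CPM in 3 libraries or more), other tests (limma-voom, the Wald test of DESeq2), a replicate block, and each library left out. Versions were edgeR 4.0.16 and DESeq2 1.42.0 with limma 3.58.1 under R 4.3.3, and Python 3.11.15 with Matplotlib 3.10.9.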

Additional observations from a re-analysis of the deposited data

How the results depend on the processing

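Of the 18 called members 7 kept their direction and their call in all 14 alternatives (CD82, ITGA3, ITGA10, ITGB2, ITGB8, TSPAN9 and TSPAN13), and the other 11 lost the call in at least 1 without a change of direction; the cause was not tested. BYSL stayed called throughout. With library totals 9 tetraspanins rose and 2 fell, with upper-quartile factors 8 and 3, and with the DESeq2 Wald test 3 and 3, against 5 and 5. Deviations from the group means of same-numbered libraries correlated at -0.129, 0.0596 and 0.0106, and those of differently numbered libraries at -0.168 to 0.151. With 3 libraries per group these values cannot decide whether the cultures were paired, and the titles give only a replicate number. With the replicate block 3 integrin genes rose against 5, 3 tetraspanins fell against 5, and 3 genes of endocytosis and recycling were called against 6. Leaving out 1 library at a time gave 2 to 6 rising integrin genes, 2 to 4 falling ones, 2 to 7 rising and 2 to 7 falling tetraspanins, 10 to 25 called linkage genes, 3 to 12 called endocytosis genes, 7 to 13 called tetraspanin partners and 4226 to 8004 called genes in all. Depth limits members with few counts, such as ITGB8, TSPAN10, ITGB6, ITGB7 and ITGA7.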

Other observations

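Summed over all integrin genes the level was 2654, 2736 and 2670 CPM in siNC 1 to 3 and 2682, 2459 and 2263 CPM in siBYSL 1 to 3, and over tetraspanins 2443, 2337 and 2413 CPM and 2208, 2269 and 2464 CPM. Sums are dominated by ITGA3, ITGB1, CD63 and CD151. The divergent non-coding gene ITGB1-DT, which shares 42 exonic bases with ITGB1 on the opposite strand, fell from 3.07 ± 0.389 to 1.97 ± 0.347 CPM (-0.65, SE 0.17, edgeR adjusted p = 0.0132), while ITGB1 itself was not called. CD151 and TSPAN4 lie close together on chromosome 11, ending at 839831 and starting at 842808 on the same strand. Their log2 differences from the siNC mean were -0.27 and -0.46 in siBYSL 1, -0.19 and -0.40 in siBYSL 2 and 0.031 and -0.13 in siBYSL 3.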
